A study of Aspergillus luchuensis with 6 samples.

Results

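Scaffold DF126582.1 is the piece of the Aspergillus luchuensis mut. kawachii genome that took more CAGE tags than any other. Its members are the start positions on it, on both strands, that held at least 1 tag in any of 6 libraries, and there were 1566 of them among 3268101 in the whole table. The members were chosen by their tags: the scaffold was selected on its tag total. The height of that total is therefore a description here and carries no test. Only its share of a library is compared between genotypes below. Just inside the rule lay 310 positions with exactly 1 tag, and just outside it 2229 listed positions of the scaffold at 0 in every library. The table names no gene, so the scaffold is called by its accession, and the identity of the RNA behind the tags is not given in it.

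The samples were mycelia of this white koji mold, 3 libraries of a control strain labelled ctrl345 and 3 of a strain labelled sirD whose genotype is given as a deletion of laeA. LaeA is a putative methyltransferase known in Aspergillus species as a regulator of secondary metabolism. For all 6 libraries the mycelia grew with shaking at 30 °C, for 36 h in M medium and then for 12 h in CAP medium. The labels do not give the alleles of the control, a shared parent, the number of transformants or whether the replicates were separate cultures, so p-values measure only the spread between these libraries, which may be technical.

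CAGE, cap analysis of gene expression, sequences a short tag from the 5′ end of capped RNA, so that a tag's position marks where an RNA starts and the number of tags how often. Messenger RNA carries the cap. Ribosomal RNA is made by another polymerase, has no such cap and makes up most of the RNA in a cell, and some of it can remain in cap-selected libraries as tags that start at its ends or at breaks. Whether that applies to DF126582.1 was not tested, because no sequence or gene of the scaffold was used here.

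The libraries held 14.8 to 19.3 M tags, and the scaffold took 1.30 to 3.11 M of them. Values of a genotype's libraries are given in the order of replicates 1, 2 and 3. The share of a library was 11.2%, 9.42% and 17.2% in the controls and 7.49%, 14.9% and 17.3% in the disruptants. The 95% Wilson interval of each share is at most ± 0.0189 percentage points wide, and for a share of the scaffold's own tags at most ± 0.0858. These intervals cover counting error only and leave out the spread between libraries. No molecular identifiers come with the counts, so copies of 1 molecule would be counted as separate tags. Controls 1 and 2 and disruptant 1 stood apart from the other 3 libraries at many positions described here, in both genotypes. The labels name no batch.

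Tags started almost only on the plus strand, which held 13234842 of the 13235070 tags at 1475 positions between 1 and 5410. The minus strand held 228 tags at 91 positions between 3212 and 5549, 26 to 62 per library. Of these, 97 tags started at position 5549, with 24, 10 and 15 in the controls and 20, 12 and 16 in the disruptants. No other minus-strand position held more than 8 tags.

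Along the plus strand the tags fell into a few islands with bare stretches between them. Between positions 1091 and 3042, a stretch of 1950 bases held 0 tags in any library, which allows up to 3 tags in each by the usual floor. The table lists only 1 plus-strand position there, against 958 upstream of that stretch. Downstream of position 3857 the plus strand held 114 tags at 73 positions, out of 779 listed. Levels are given as CPM, the tags at a position divided by the library's total and multiplied by 1e6. Positions with 0.1 CPM or more over all libraries pooled were joined when they lay at most 20 bp apart, which gave 6 tag clusters of at least 1 CPM on the scaffold. They spanned positions 1 to 100, 170 alone, 662 to 783, 879 to 906, 1049 to 1063 and 3042 to 3857.

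**Figure D1:**
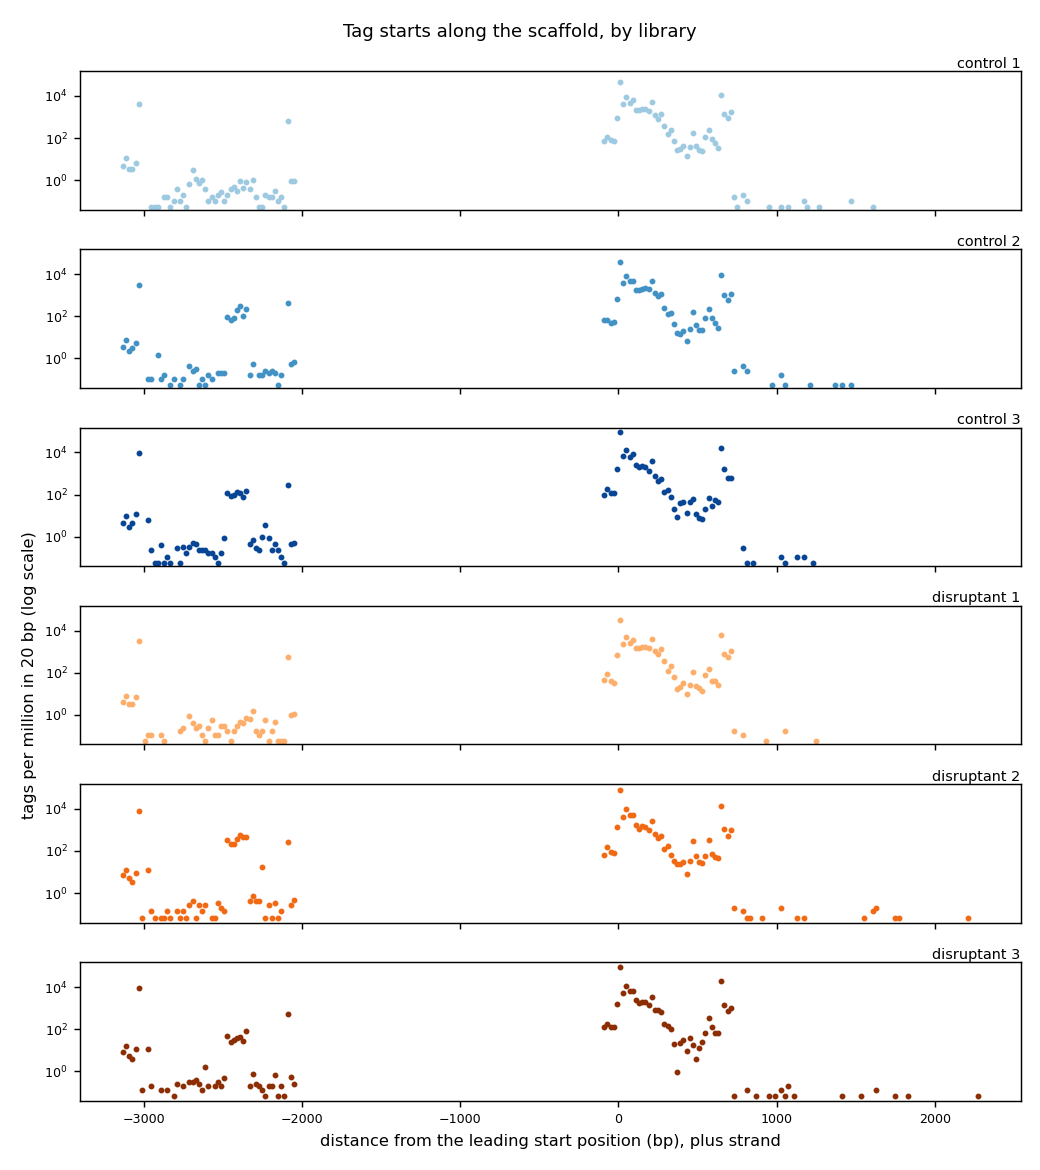
CPM (vertical axis, log scale) in bins of 20 bp along the plus strand (horizontal axis, distance in bp from position 3138), 1 panel per library. Each point is a bin with at least 1 tag. The dense island on the right is the cluster at 3042 to 3857, and the island at 662 to 783 lies far lower in control 1 and disruptant 1 than in the other libraries.

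The cluster at 3042 to 3857 held 94.4% of the scaffold's tags, with a tag at 805 of its 816 positions. From 3052 to 3576 every position had a tag, an unbroken run of 525. Runs at least as long occurred 2 times on all other scaffolds, the longest of 564 positions. Whether such runs follow from depth was not tested. The tags were far from even: 2 positions, both in this island, held 53.5% of all scaffold tags. Over the whole scaffold, 108 positions held 90%.

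Position 3138 led by a wide margin, with 5961021 tags, which were 45.0% of the scaffold's tags and 5.73% of the tags of the whole series. It was the most used position of any scaffold. It took 4.05%, 3.36% and 8.44% of all tags in the controls and 2.89%, 7.93% and 8.73% in the disruptants. Control 3 and disruptants 2 and 3 were thus high, controls 1 and 2 and disruptant 1 low, and the genotypes overlapped. Against the base before it the start was sharp: position 3137 held 92931 tags, and position 3138 had 51.9 to 72.0 times as many in each library. Its surroundings were not bare. The 100 positions from 3101 to 3200 together held 60.1% of the scaffold's tags, and 72 of them had at least 1000 tags.

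Position 3781, 643 bp downstream of 3138, came next, with 1120520 tags, and it was also the next most used position of the whole series. It held 8948, 7396 and 14180 CPM in the controls and 5076, 12451 and 18116 CPM in the disruptants. Disruptant 3 was the highest and disruptant 1 the lowest, so the range within the disruptants covered that of the controls. The ratio of position 3138 to position 3781 ranged from 4.52 to 6.37 over the 6 libraries.

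The remaining leading positions of this island lay within 100 bp downstream of 3138. Neighbouring positions 3194 and 3195 held 220019 and 292786 tags, positions 3211 and 3212 held 126064 and 166611, and positions 3158 and 3230 held 138744 and 158407. Position 3195 had 2585, 2692 and 3469 CPM in the controls and 1357, 3190 and 3771 CPM in the disruptants. Controls 1 and 2 lay nearer to control 3 than at 3138, and disruptant 1 was the lowest. The number of tags at 3138 per tag at 3195 accordingly ranged from 12.5 in control 2 to 24.8 in disruptant 2.

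The cluster at positions 1 to 100, at the scaffold's edge, was a pair of adjacent starts. Position 99 held 413164 tags and position 100 held 200176, and only 3 positions of the cluster had at least 1000 tags. Position 99 had 2790, 2095 and 6040 CPM in the controls and 2289, 5469 and 5836 CPM in the disruptants. The order of high and low libraries was like that at 3138, and the genotypes overlapped. The level of position 99 relative to position 100 hardly moved, from 2.01 to 2.14 over the libraries (mean 2.07 ± 0.047, SD, n = 6), while the level of the pair varied by a factor of 2.86 to 2.88. Position 3138 held 12.6 to 16.0 times the tags of position 99, 3039 bp away (mean 14.4 ± 1.13, SD, n = 6), so the far-apart starts kept a closer ratio than 3138 and 3195 did at 57 bp.

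**Figure D2:**
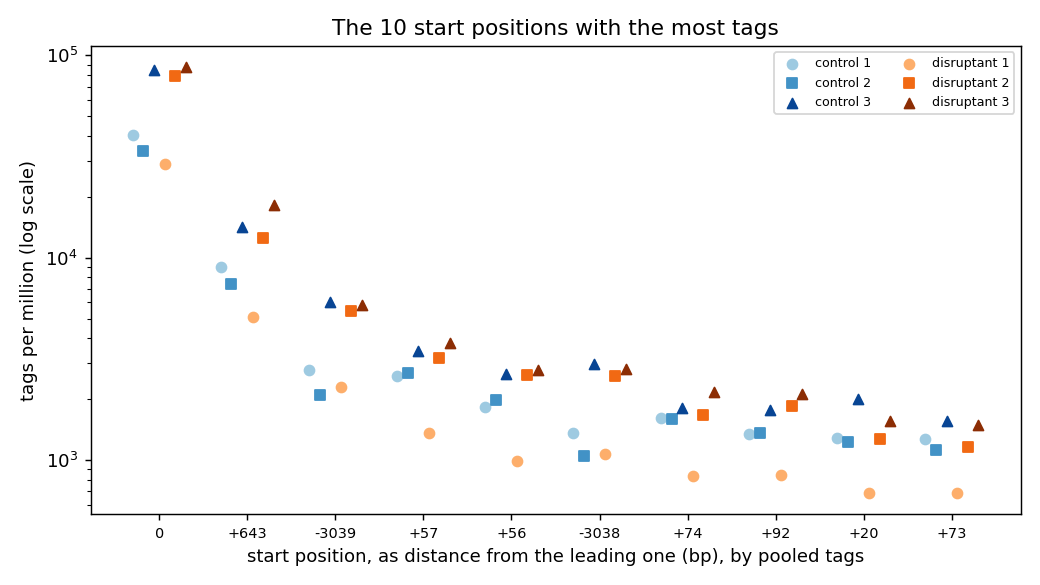
CPM (vertical axis, log scale) at the 10 positions of the scaffold with the most tags, ordered by pooled tags and given as distance from position 3138 in bp (horizontal axis). Each point is a library. At positions 3138, 99 and 100, controls 1 and 2 and disruptant 1 sit well below the other 3 libraries. At the positions from +20 to +92 disruptant 1 is the lowest.

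The 10 positions with the most tags together held 66.5% of the scaffold's tags. Their share was 56.7%, 57.5% and 70.1% in the controls and 57.0%, 74.8% and 74.0% in the disruptants. The means were 61.4% ± 7.55 in controls and 68.6% ± 10.1 in disruptants (SD, n = 3 each), a difference smaller than the spread between replicates.

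The cluster at 662 to 783 was present in some libraries and nearly missing in others. It held 64, 20846 and 13907 tags in the controls and 34, 38899 and 4549 tags in the disruptants. In CPM this was 3.34, 1079 and 771 in the controls and 1.96, 2622 and 297 in the disruptants. The 2 libraries numbered 1, of either genotype, were the low ones, and the highest and the lowest library were both disruptants. The highest library exceeded the lowest 323-fold within controls and 1337-fold within disruptants. Among the 6964 clusters of at least 1000 tags in the whole table, the median of that ratio was 1.39 in controls and 1.45 in disruptants. The cluster ranked 2 of 6964 in controls and 1 of 6964 in disruptants. These searches were chosen after the cluster's values were seen.

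In no other cluster of at least 1000 tags were both libraries numbered 1 at least 5-fold below each of the other 4. No cluster showed that pattern for the libraries numbered 2 or 3, and none the opposite pattern for any number. Of the labels, only the replicate number sets the low libraries apart, and what it stands for is not stated.

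Inside the cluster the tags were spread over many starts, unlike those at 3138. All 122 positions had a tag, and 115 had one in each of controls 2 and 3 and disruptants 2 and 3. The most used position, 672, held 6014 tags, 7.68% of the cluster. It had 51.5 CPM in control 2, 75.3 in control 3, 214 in disruptant 2 and 31.4 in disruptant 3. In control 1 and disruptant 1 no position of the cluster had more than 7 and 4 tags. Positions 781 and 782, near its downstream end, were the next most used, with 5193 and 5277 tags.

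The make-up of the cluster was similar but not the same in the libraries that held it. Across its 122 positions, log2(tags + 1) correlated at 0.904 to 0.941 between pairs of these 4 libraries, as a description over positions that share libraries and depth. Positions 662 to 701 held 16.1% of its tags in control 2, 28.6% in control 3, 21.9% in disruptant 2 and 26.0% in disruptant 3. Positions 742 to 783 held 46.2% in control 2, 37.0% in control 3, 45.1% in disruptant 2 and 45.4% in disruptant 3. Control 2 had the smallest part of its tags upstream, and control 3 the largest.

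**Figure D3:**
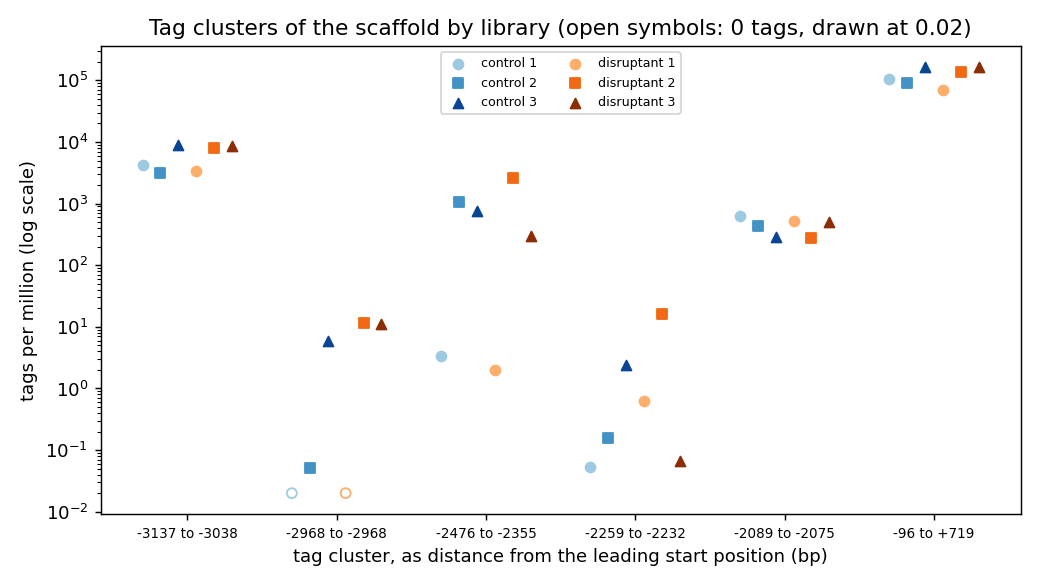
CPM (vertical axis, log scale) of the 6 tag clusters of the scaffold, given by their span in bp from position 3138 (horizontal axis). Each point is a library, and open symbols drawn at 0.02 are libraries with 0 tags. The cluster at -2476 to -2355, positions 662 to 783, spans from 1.96 to 2622 CPM, while the cluster at -2089 to -2075, positions 1049 to 1063, stays between 280 and 621 CPM.

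The cluster at 1049 to 1063 did not follow the order of the libraries at 3138. It held 621, 425 and 282 CPM in the controls and 531, 280 and 507 CPM in the disruptants, with position 1050 in the lead. Control 1 and disruptant 1, low at 3138, were the highest here, and control 3 and disruptant 2, high at 3138, the lowest.

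The other 2 clusters were small. Position 170 held 0, 1 and 107 tags in the controls and 0, 172 and 170 tags in the disruptants. It was thus seen in control 3 and disruptants 2 and 3 and at or under the floor of 3 tags in the other libraries. The cluster at 879 to 906 held 1, 3 and 43 tags in the controls and 11, 238 and 1 tags in the disruptants, so that most of its tags came from disruptant 2.

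To find which positions account for the spread among replicates, each position's covariance with the scaffold's CPM total within genotypes was divided by the variance of that total within genotypes. These shares add up to 100% over the 1566 positions, and a position that falls where the total rises has a negative share. Position 3138 carried 63.7% of the spread, more than its 45.0% of the tags. Position 3781 carried 11.0%, position 99 carried 4.31% and position 100 carried 2.11%. The 10 positions with the largest shares carried 88.3% of the spread with 66.2% of the tags. Of these 10, 9 were also among the 10 with the most tags. The total contains each position and CPM were not scaled by level, so heavily used positions tend to have large shares by construction. The cluster at 3042 to 3857 as a whole carried 93.0% of the spread with 94.4% of the tags. The one at 1 to 100 carried 6.45% with 4.67% of the tags, and the one at 662 to 783 carried 0.662% with 0.592% of the tags.

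Taking leading positions out restates this in plain shares. It is no separate evidence, since the positions were chosen by their shares of this same spread. Without position 3138 the scaffold took 7.15%, 6.05% and 8.79% of all tags in the controls and 4.60%, 6.98% and 8.57% in the disruptants. The SD within genotypes, pooled, fell from 4.63 to 1.72 percentage points. It was 1.20 without 3781 as well and 0.617 without the 10 positions of the largest shares, when 33.8% of the tags were left. The highest library was 2.31 times the lowest with all positions and 1.60 times without these 10.

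**Figure D4:**
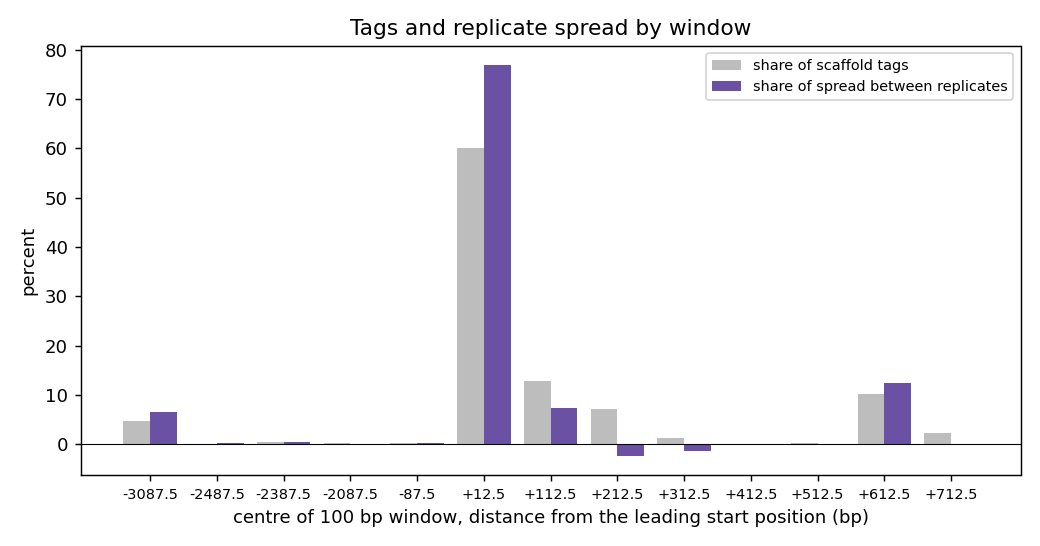
Share of the scaffold's tags (grey bars) and share of the spread between replicates (purple bars), both in percent, for the 13 windows of 100 bp with at least 10000 tags, by the distance of their centre from position 3138 in bp. The window of position 3138 holds 60.1% of the tags and 76.8% of the spread. The windows at +212.5 and +312.5, positions 3301 to 3500, lie below 0, as do, by less, those at -2087.5 and +512.5.

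Not every part of the scaffold followed its total. The window at 3101 to 3200 carried 76.8% of the spread and that at 3701 to 3800 carried 12.4%. The window at 3201 to 3300 held 12.9% of the tags but carried 7.28%. The windows at 3301 to 3400 and 3401 to 3500 held 7.12% and 1.21% of the tags and carried -2.37% and -1.28%. Smaller negative shares fell on the windows at 1001 to 1100, with -0.171%, and at 3601 to 3700, with -0.142%. Of the 107 positions of at least 1000 tags between 3301 and 3500, 102 had a negative share, against 15 of 163 between 3101 and 3300. In all, 713 positions with 10.6% of the tags had a negative share, and they summed to -4.95%.

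Position 3404 had the most negative share, -0.278%. It held 340, 334 and 107 CPM in the controls and 357, 119 and 128 CPM in the disruptants. Controls 1 and 2 and disruptant 1, which were low at 3138, all lay above the other 3 libraries here. The ratio of 3138 to 3404 therefore ranged from 80.9 to 786. Position 3854, near the downstream end of the island, came next with -0.221%. It held 383, 243 and 72.0 CPM in the controls and 224, 189 and 15.8 CPM in the disruptants, with disruptant 3 far below the rest.

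The make-up of the scaffold's tags shifted accordingly. The window at 3101 to 3200 held 52.9%, 52.6% and 64.9% of them in the controls and 52.9%, 66.3% and 63.7% in the disruptants. The window at 3301 to 3400 held 10.4%, 11.6% and 4.72% in the controls and 11.5%, 3.92% and 4.73% in the disruptants. Controls 1 and 2 and disruptant 1 were below the other 3 libraries in the first of these windows and above them in the other. As parts of 1 total, such shares cannot all move independently, but the window at 3401 to 3500 went the other way in CPM too. It had 2246, 1765 and 929 CPM in the controls and 2139, 872 and 1072 CPM in the disruptants.

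**Figure D5:**
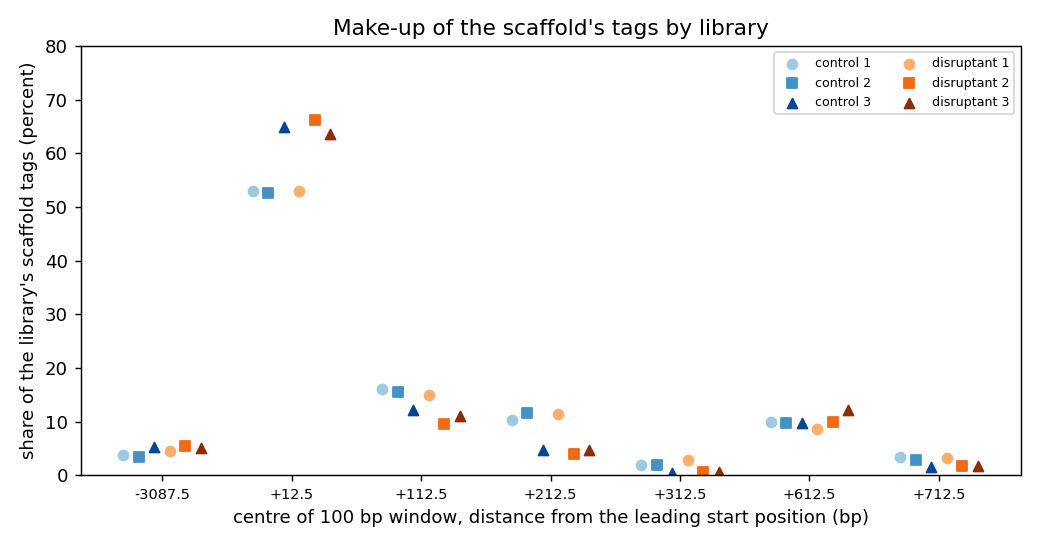
Share of each library's scaffold tags in percent (vertical axis) in the 7 windows of 100 bp with at least 100000 tags, by the distance of their centre from position 3138 in bp (horizontal axis). Each point is a library. At +12.5 controls 1 and 2 and disruptant 1 sit near 53% and the other 3 libraries between 63.7% and 66.3%, and at +212.5 the order is the opposite.

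Single positions of the scaffold varied somewhat more between replicates than those of other scaffolds. Among positions of at least 1000 tags, the median SD of log2 CPM within genotypes was 0.48 over 377 positions of the scaffold and 0.37 over 10453 positions elsewhere. The 95th percentile elsewhere was 1.00, and 34 of the 377 lay above it, 17 of them in the cluster at 662 to 783, where the median was 4.79. At position 3138 the SD was 0.80, in the window at 3401 to 3500 the median was 0.80, and in the window at 3201 to 3300 it was 0.38. For whole clusters, edgeR's estimate of the biological coefficient of variation had a median of 0.848 over the 6 clusters of the scaffold and 0.271 over all 20124 tested. The median of 6 mixes unlike clusters. The SE of the log2 fold change between genotypes was 0.33 to 0.51 at 1 to 100, 1049 to 1063 and 3042 to 3857. It was 1.59 to 1.86 at 170, 662 to 783 and 879 to 906, which each held 0.592% of the scaffold's tags or less.

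The comparison of genotypes asked whether start sites depend on laeA. The scaffold's share of all tags was 12.6% ± 4.09 in controls and 13.2% ± 5.11 in disruptants (SD, n = 3 each). The difference of 0.616 percentage points was within the spread between replicates (exact permutation test, two-sided p = 0.9, where 0.1 is the smallest p that 3 against 3 can give). It was 3.49 without disruptant 1 and 2.92 without control 3, and it changed sign without each of the others, to -1.42 without disruptant 3, -0.984 without control 2, -0.220 without disruptant 2 and -0.0913 without control 1. It was -0.537 without position 3138.

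No cluster of the scaffold was called between genotypes. Of the 6 tested, 0 passed an adjusted p of 0.05 (edgeR quasi-likelihood test, Benjamini-Hochberg over all clusters), against 7.53% of the clusters of the whole table, and 0 had an unadjusted p under 0.05. DESeq2 gave a p for 4 of them and called 0. In 0 of the 6 did the libraries of the genotypes not overlap, against 28.6% of all clusters. For the main island, positions 3042 to 3857, the log2 fold change of disruptant over control was -0.0040 (SE 0.44; edgeR adjusted p = 0.997). For positions 1 to 100 it was 0.24 (SE 0.51; edgeR adjusted p = 0.817), for 1049 to 1063 it was -0.073 (SE 0.33; edgeR adjusted p = 0.919), and for 662 to 783 it was 0.59 (SE 1.86; edgeR adjusted p = 0.880). When each library was left out in turn, these values ranged from -0.32 to 0.33 at 3042 to 3857, from -0.059 to 0.87 at 1 to 100 and from -0.28 to 0.25 at 1049 to 1063. The direction at 662 to 783 was not stable: its log2 fold change was -2.01 without disruptant 2, -0.0085 without control 1, between 0.81 and 1.19 without each of the other libraries, and -0.35 (SE 0.54) with the replicate number as a block. The standard errors leave room for sizeable differences that these libraries could not show. With the scaffold total as library size, the cluster at 879 to 906 alone was called (edgeR adjusted p = 0.00834), against 2.42% of all clusters in that fit, and its tags came mostly from disruptant 2.

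Because the main cluster pools 816 positions, single positions were tested as well, a choice made after seeing the data. Of the 1566 members, 852 had at least 30 tags and 752 of those passed the filter on low counts. Of the 752, 0 were called (edgeR quasi-likelihood test, Benjamini-Hochberg over 132970 positions), against 2.87% of all positions tested. An unadjusted p under 0.05 was found at 17 of the 752. The matching share over all positions is not given here, so this count is not read as a difference between genotypes. The lowest edgeR adjusted p was 0.193. The genotypes did not overlap at 43 of the 752 positions, against 19.3% of all positions tested, so at a smaller share than over the table. At position 3138 the log2 fold change was 0.28 (SE 0.51; edgeR adjusted p = 0.858) and at 3781 it was 0.21 (SE 0.47; edgeR adjusted p = 0.890). Without control 3, 2 of 777 positions were called, 1 higher and 1 lower, against 5.12% of all positions tested in that fit.

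The scaffold's share of all tags and the shares of the scaffold's own tags in its 6 clusters, at the 10 leading positions and in 2 windows were compared in 19 exact permutation tests. None of these exact tests can go below p = 0.1, and no adjusted p was below 0.76. Position 3138 took 40.3% ± 7.54 of the scaffold's tags in controls and 47.4% ± 7.79 in disruptants (SD, n = 3 each; exact permutation p = 0.2, adjusted p = 0.76). Position 3158 was the only one of the 19 at the smallest p. It took 1.20% ± 0.085 in controls and 0.888% ± 0.034 in disruptants (SD, n = 3 each; exact permutation p = 0.1, adjusted p = 0.76), lower in every disruptant than in every control. This held for the share only. In CPM position 3158 had 1281, 1223 and 1999 in the controls and 685, 1266 and 1556 in the disruptants, so the genotypes overlapped. Its log2 fold change was -0.38 (SE 0.39; edgeR adjusted p = 0.725).

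The scaffolds next in tag number, DF126448.1 and DF126447.1, were used differently, but they are far longer. Their last positions with a tag were 2003332 and 2076409, against 5549 on DF126582.1. Whether the contrasts below follow from length was not tested, and short scaffolds were not compared. They held 5.20% and 4.56% of all tags at 202354 and 241149 positions, a mean of 26.7 and 19.7 tags per position, against 12.7% at 1566 positions and a mean of 8452 on DF126582.1. Their tags were split nearly evenly between strands, 49.0% and 48.0% on the plus strand, against 99.998%. Their leading position held 3.63% and 1.25% of their tags, and 377 and 948 positions were needed for 50% of them, where 2 sufficed here. Their share of a library varied between libraries by a factor of 1.17 and 1.23, against 2.31.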

How the data were processed

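The deposited table gives unscaled tag counts of 6 CAGE libraries at 8582186 start positions. FastQC, BWA and bedtools are named in the submitters' processing notes, without roles. Genome build, trimming and the handling of multi-mapped tags are not given in the sources used here. The last of these bears on repeated sequence. Positions count from 0 in the table and from 1 here. Minus-strand positions may follow another convention. Columns were matched to libraries by name, and groups and replicate numbers come from titles.

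CPM uses library totals. Clusters were fitted over the whole table with edgeR 4.0.16 in R 4.3.3 (TMM, filterByExpr, quasi-likelihood F test, Benjamini-Hochberg). SE was derived from the fold change and its F value. DESeq2 1.42.0, other scalings, filters, joining rules, the replicate block and leaving out each library were alternatives. On simulated counts of 20124 clusters, 71% of log2 changes of 2 and 93% of changes of 3 were recovered, with 6 and 10 false calls. For 132970 positions these were 26% and 74.5%, with 6 and 19 false calls. The changed clusters and positions were drawn at random from the whole table. The rates were not measured for the scaffold's own clusters, whose median biological coefficient of variation was 0.848 against 0.271 over all clusters. No library was a copy of another: chi-square per degree of freedom within genotypes was 34.5 to 101.

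Members, lists and tests were chosen with earlier results of these data known. Named were the 10 positions and 6 clusters with the most tags, those with the largest spread shares, called clusters and strand ends. The block, the most negative positions, ratios and runs were added after seeing values. Floors are 3 tags per library.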

Additional observations from a re-analysis of the deposited data

How the results depend on the processing

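The genotype difference in the scaffold's share, 0.616 percentage points, was -0.537 without position 3138 and ranged from -1.42 to 3.49 when each library was left out, with exact p of at least 0.4. Over all clusters, residuals of libraries sharing a number, after removing genotype means, had correlations of 0.462, -0.439 and -0.0854 for numbers 1, 2 and 3, so the numbers were not taken to pair the libraries, although both libraries numbered 1 were low at 662 to 783. With the replicate block the difference was 0.616 (exact sign-flip p = 0.75, smallest possible 0.25), 0 of 6 clusters were called and 0 of 752 positions. Clusters called on the scaffold were 0 under every alternative run except the scaffold total as library size, which gave 1. With at least 10 tags in every library, and by DESeq2, 4 of the 6 could be tested. Positions called were 0 to 2 when single libraries were dropped. The cause was not tested. The leading cluster's share of the spread, 93.0%, was 76.8% with bins of 100 bp as the unit, since a bin is narrower than the cluster, and ranged from 91.6% to 93.6% when each library was left out. The share of position 3138 ranged from 60.9% to 67.4% over its alternatives, and that of the 10 leading positions from 85.6% to 90.4%. Over the whole table, 1515 clusters were called, 766 higher and 749 lower in disruptants. There were 571 at an adjusted p of 0.01, 833 with the replicate block, 1004 with positions of at least 0.5 CPM, 650 to 1972 without each library, 2368 by DESeq2 and 487 with the scaffold total as library size, of which 181 were higher and 306 lower. The exact tests cannot pass 0.05 with 3 libraries a group. Intervals from depth cover counting error only.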
